A study of Mus musculus with 66 samples.

Results

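The genes described here encode the parts with which an epithelial cell builds and holds its basement membrane, namely integrins, laminins, collagens, other basement membrane proteins, and the proteins that tie integrins to the cytoskeleton. Transcripts were taken by gene symbol alone, as every row whose symbol begins with Itga, Itgb, Lama, Lamb, Lamc or Col followed by a digit, together with Itgav, Hspg2, Nid1, Nid2, Agrn, Dag1, Fn1, Plec, Tln1, Tln2, Vcl, Ilk and Ptk2. This gave 54 transcripts of 49 symbols among 9481 transcripts. They comprised 13 collagens, 10 laminin chains, 7 integrin alpha and 7 integrin beta transcripts, 6 other matrix proteins and their receptor, and 8 transcripts of intracellular linkers and adhesion kinases. A further 3 transcripts matched by name only. Col4a3bp, a ceramide carrier, Itgb1bp1, an integrin-binding adaptor, and Itgb3bp, a nuclear protein, are not subunits of these families.

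Mouse small intestinal organoids of the line Lgr5 GFPDTR/+ were compared in 3 culture media. ENR is the regular medium with EGF, Noggin and R-Spondin-1, in which stem cells and differentiated cells occur together. CV is ENR with 3 µM CHIR99021, a GSK3 inhibitor, and 1 mM valproic acid, a histone deacetylase inhibitor, and enriches for stem cells. EN is ENR without R-Spondin-1 and enriches for enterocytes. By the authors' methods, CV organoids spent more days in their medium than EN organoids in theirs. Medium and time in it cannot be told apart between these cultures. Organoids of all 3 cultures were embedded in BME, a basement membrane extract, so that the cells met a gel of such proteins from outside in every condition, and every culture carried the GFPDTR allele at Lgr5. RNA was measured in 4 libraries per culture, and ATAC-seq, a measure of open chromatin, in 4. For each of the histone marks H3K27ac, H3K4me3 and H3K27me3, 4 libraries per culture were listed, and 5 for H3K27ac in CV. Joint scores were available for 3 per culture and mark, and these are used here. Hnf4g, an enterocyte transcription factor, was measured in 1 library per culture.

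Laminins are trimers of an alpha, a beta and a gamma chain and form the sheet on which the epithelium sits, while nidogens, perlecan and agrin join that sheet to the type IV collagen network. Integrins are heterodimers of an alpha and a beta subunit that bind these proteins from the cell side. Talin, vinculin and kinases connect most integrins to actin, and plectin connects integrin alpha 6 beta 4 to keratin filaments in the hemidesmosome. In the intestine the stem cells lie in the crypt and the enterocytes on the villus, and the laminins and integrins around them are known to differ along that axis.

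The table holds only transcripts whose protein had been quantified in the study, so the members are not a complete census of these families. The study also set aside proteins found in the BME gel from its later analyses. Whether that step removed transcripts from this table cannot be told here. RNA libraries held 5630977 to 8859757 expected counts. Levels of different transcripts are compared in TPM, which scale each transcript to its length and each library to the same total, and a single transcript is compared between libraries in CPM, its counts relative to the library total after TMM scaling. Of the 54 members, 50 were detected in at least 4 of 12 libraries and tested, and Col6a1, Col6a2, Col6a3 and Itgb2 were not. A mean of at least 1 TPM in some culture was reached by 37, and 17 stayed below it. Markers of epithelium summed to between 6191 and 8343 TPM in every library, and all 8 of 8 were listed. Of the mesenchymal markers 7 of 13 were listed, and their sum was 4.24 to 6.16 TPM in CV, 7.05 to 8.08 in ENR and 16.6 to 20.4 in EN. Vim carried that sum, with 2.82, 6.81 and 17.8 TPM, while Acta2, Thy1, Sparc, Tagln and Postn stayed below 1 TPM in every culture and Des reached 1.52 TPM in CV. The immune markers listed, 2 of 5, stayed at or below 0.834 TPM, with Cd3e listed at 0. The other immune markers and all 4 endothelial markers were not listed, so their levels are not known here. The mesenchymal and immune sums were lower in CV than in EN, the mesenchymal one through Vim. Des went the other way, with 85, 0 and 1 counts in CV, ENR and EN. The sums therefore do not rank the cultures by mesenchymal cells, and the part of other cell types in the results was not tested. In such bulk libraries, fewer cells of a type and less RNA per cell cannot be told apart.

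Between EN and CV, 32 of the 50 tested members passed an adjusted p of 0.01 in edgeR's quasi-likelihood test, against 76.4% of all transcripts. Of these, 9 were higher in EN, against 35.2% of all transcripts, and 23 were lower, against 41.2%. The median log2 fold change was −0.48 for members and −0.08 for all transcripts. With a change of at least 2-fold required as well, 5 members were higher, against 15.2%, and 19 were lower, against 20.1%. The TMM scale assumes that most RNA does not change in total, and this matters here. Scaling to the spike-in RNA moved the median of all transcripts to −0.49 between EN and CV, and the mRNA copies that the authors deposited moved it to 0.69, so values on these scales are given below where they change a direction or a call. Members split into 6 higher and 25 lower under the spike-in scale, against 15.9% and 46.2% of all transcripts. In copies they split into 14 higher and 17 lower, against 47.0% and 13.6%. On log2(TPM + 1) in limma, 24.4% of all transcripts were higher and 53.6% lower. These shares also stand beside the counts by role and by list between EN and CV below.

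The laminin chains showed 1 direction. Of 10 tested, 7 were lower in EN than in CV and 0 were higher by the quasi-likelihood test, with 0 higher at an unadjusted p under 0.05, and the same split was found under the spike-in scale, in copies and on TPM. Together the laminin chains reached 140 ± 9.42 TPM in CV, 57.7 ± 2.86 in ENR and 28.3 ± 1.36 in EN (SD, n = 4). The most abundant chain was Lamb3 (XM_006497233.2, chr1:195128151-195170072 in NCBIM37, the mm9 build), the beta chain of laminin-332, the laminin of hemidesmosomes. Its level was 182, 170, 175 and 191 CPM in the CV libraries, 86.8, 101, 92.9 and 95.4 in ENR, and 55.8, 60.6, 58.9 and 70.3 CPM in EN. The 3 cultures did not overlap, with CV highest and EN lowest. Between EN and CV the log2 fold change was −1.55 (SE 0.0672, adjusted p = 6.49e-12, edgeR).

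Lama3, the alpha chain that joins Lamb3 in laminin-332, was far lower at 3.32, 0.889 and 0.640 TPM in CV, ENR and EN, and fell by 2.05 on the log2 scale in EN relative to CV (SE 0.175). In TPM, Lamb3 stood above Lama3 in each culture. NM_010680.1 was the only Lama3 transcript listed, and its TPM depends on its length. Whether it is the form that enters laminin-332 was not examined, so other forms may be missed.

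The chains of the laminins that surround the crypt and villus more generally fell further. Lamb1 (XM_006514992.3, chr12:31950099-32014509), a beta chain of laminin-111 and laminin-511, was read at 30.1, 27.9, 27.8 and 33.5 in CV, at 2.30, 5.73, 2.88 and 3.78 in ENR, and at 0.268, 1.07, 0.535 and 0.576 CPM in EN. No culture overlapped another, and the EN values rest on 2 to 5 counts per library. The log2 fold change between EN and CV was −5.67 (SE 0.283, adjusted p = 3.52e-11).

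Lamb2 (XM_006511648.2, chr9:108382193-108392861), the beta chain of laminin-521, gave 22.1, 27, 21.6 and 24.9 in CV, 11, 12.3, 11.8 and 11.1 in ENR, and 0.670, 0.642, 0.357 and 0.144 CPM in EN. For Lamb2 the log2 fold change of EN over ENR was −4.64 (SE 0.231), a larger step than that between CV and ENR on all 3 scales. For Lamb1 the steps were of like size, −2.63 (SE 0.370) for EN over ENR and 3.04 (SE 0.203) for CV over ENR, and their order turned under the spike-in scale (−3.16 and 2.94). Lama5, the alpha chain of laminin-511, had 12.4, 1.47 and 0.273 TPM in CV, ENR and EN, and its log2 fold change of EN over CV was −5.23 (SE 0.148). Lamc1, the gamma chain shared by these laminins, had 11.4, 2.95 and 2.15 TPM, and fell by 2.10 on the log2 scale in EN relative to CV. Between EN and ENR, Lamc1 did not pass the threshold (−0.31, adjusted p = 0.0127), and without the library EN 3 it did (−0.41). Lama1, Lama2 and Lama4 gave 0 to 16 counts in the whole of any culture.

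**Figure D1:**
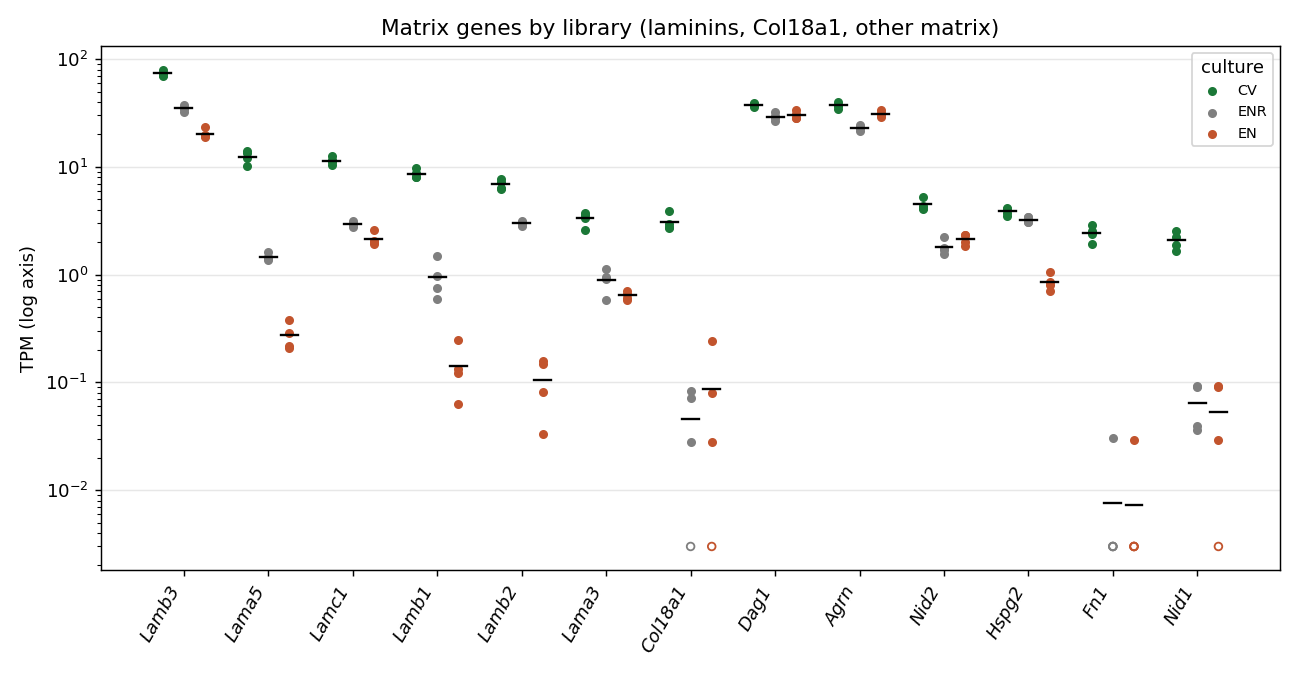
Levels in TPM (log axis) of laminins, Col18a1 and other matrix proteins in the 4 libraries of each culture, with points for libraries and bars for the mean; open circles at the lower edge mark libraries with 0. The laminins step down from CV to EN, as with Lamb3 at 74.0, 34.8 and 20.3 TPM, and Fn1, Nid1 and Col18a1 are read almost only in CV.

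Of the 6 other basement membrane transcripts tested, 4 were lower in EN than in CV and 0 were higher (0 at an unadjusted p under 0.05), the same split under the spike-in scale, but 3 lower and 2 higher in copies and 6 lower on log2(TPM + 1). Fn1 (NM_001276411.1, chr1:71632094-71699774), which encodes fibronectin, gave 92, 70, 106 and 94 counts in the CV libraries, 0, 1, 0 and 0 in ENR, and 0, 0, 1 and 0 in EN. The CV libraries held all but a single count of each comparison. The ratio of CV to EN was 291 with a 95% counting interval of 51.8 to 11507, and that of CV to ENR was 335 (adjusted p = 7.06e-10 and 1.57e-09, edgeR).

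Nid1 (NM_010917.2, chr13:13529869-13604542), the nidogen that bridges laminin and type IV collagen, gave 62, 47, 54 and 77 counts in CV, 3, 1, 1 and 3 in ENR, and 1, 2, 0 and 3 in EN. CV lay 32.1-fold above EN (95% counting interval 14.5 to 88.4) and 27.8-fold above ENR, without overlap. Nid2, its relative, was less restricted, with 4.48, 1.80 and 2.12 TPM in CV, ENR and EN, giving a log2 fold change of −0.77 from CV to EN, which copies do not show (−0.07, adjusted p = 0.852). Hspg2, which encodes perlecan, stood apart in its order of levels. It was close in CV and ENR (3.85 and 3.24 TPM, adjusted p = 0.392) and lower in EN (0.854 TPM, log2 fold change from CV −1.84, SE 0.105).

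Dag1 (XM_006511636.2, chr9:108108286-108166255), dystroglycan, a laminin receptor outside the integrin family, was with Agrn the most abundant of these genes in each culture. It was read at 127, 118, 125 and 125 in CV, 97.9, 105, 117 and 108 in ENR, and 133, 118, 128 and 116 CPM in EN, and the CV and EN libraries overlapped. Its log2 fold change between EN and CV was 0.01 (SE 0.0576, adjusted p = 0.935), but −0.41 under the spike-in scale (adjusted p = 0.0392) and 0.83 in copies (adjusted p = 0.0047). Agrn, a heparan sulfate proteoglycan that binds dystroglycan, had 37.1, 23.0 and 31.1 TPM in CV, ENR and EN, and its log2 fold change between EN and CV was 0.06 (adjusted p = 0.325), but −0.38 under the spike-in scale (adjusted p = 0.0467) and 0.89 in copies (adjusted p = 0.00196). It was higher in EN than in ENR by 0.59, a call that the spike-in scale did not hold (0.07).

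Collagens were rare in these libraries. Their 13 transcripts summed to 4.33 TPM in CV, 0.416 in ENR and 0.616 in EN, and only Col18a1 reached 1 TPM. Of 10 tested between EN and CV, 2 were lower and 2 were higher, with 3 lower and 2 higher under the spike-in scale, 2 lower and 1 higher in copies, and 3 lower and 0 higher on log2(TPM + 1) in limma (2 higher at an unadjusted p under 0.05). Col18a1 (XM_006513174.3, chr10:76514923-76629293), the basement membrane collagen whose end is released as endostatin, gave 90, 86, 84 and 132 counts in CV, 1, 2, 0 and 3 in ENR, and 3, 0, 7 and 1 in EN. All CV libraries lay above all others. CV exceeded ENR 60.4-fold (95% counting interval 27.5 to 166), and the log2 fold change of EN over CV was −4.77 (SE 0.450).

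Col4a5 (XM_006528696.3, chrX:137909928-138123778), a type IV collagen chain, gave 30, 31, 27 and 32 counts in CV, 1, 1, 3 and 6 in ENR, and 2, 0, 0 and 1 in EN, a ratio of CV to EN of 32.1 (95% counting interval 10.7 to 158). The main type IV chains Col4a1 and Col4a2 gave 0 to 4 counts in the whole of any culture. The 2 that rose rest on few reads. Col15a1 (XM_006537601.2, chr4:47221033-47326039) gave 0 counts in each CV library, 0, 0, 4 and 6 in ENR, and 10, 1, 3 and 7 in EN, and was at least 2.18-fold higher in EN than in CV, taken at a floor of 3 counts per library. Col6a5 (NM_001167923.1, chr9:105758400-105862974) gave 0 in each CV library, 2, 1, 1 and 1 in ENR, and 5, 4, 6 and 7 in EN, at least 2.28-fold above CV at that floor. The fibrillar collagen Col1a1 gave 26 counts over the 4 CV libraries and 4 over those of each other culture.

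Integrin alpha subunits were read at much higher levels than the collagens, and 5 of 7 tested transcripts were lower in EN than in CV while 1 was higher, the same split under the spike-in scale, but 2 lower and 1 higher in copies. Itga6 (chr2:71583673-71696473), which pairs with Itgb4 in hemidesmosomes, was the most abundant alpha subunit in CV and ENR, with 110 ± 4.17 TPM in CV, 76.3 ± 1.76 in ENR and 28.3 ± 1.06 in EN (SD, n = 4) over its 2 transcripts. Their sum was 376, 404, 409 and 405 in CV, 307, 317, 304 and 318 in ENR, and 120, 131, 125 and 133 CPM in EN. The cultures did not overlap, and the log2 fold change between EN and CV was −1.65 (SE 0.0462).

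The transcripts of Itga6 differed in the step at which they fell. XM_017315707.1 gave 169, 142, 162 and 202 in CV, 178, 174, 245 and 213 in ENR, and 36.2, 39.8, 28.4 and 36.9 CPM in EN, so that CV and ENR overlapped and EN lay below both. XM_011239309.2 gave 207, 263, 247 and 204 in CV, 129, 142, 58.5 and 104 in ENR, and 84.4, 91.4, 96.5 and 96.6 CPM in EN. Here CV lay above both other cultures, which overlapped. Between EN and CV their log2 fold changes were −2.26 (SE 0.139) and −1.32 (SE 0.183). The difference between the transcripts was not tested, their reads were divided by an estimate, and the library ENR 3 was lowest in XM_011239309.2 and highest in XM_017315707.1 among ENR. Without ENR 3, XM_011239309.2 passed the threshold between EN and ENR (−0.44).

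Itga2 (NM_008396.2, chr13:115626124-115722249), the collagen-binding alpha subunit, gave 119, 106, 120 and 114 in CV, 82.1, 87.2, 87.2 and 87.0 in ENR, and 38.2, 35.3, 41.9 and 41.0 CPM in EN. No culture overlapped another and the log2 fold change between EN and CV was −1.55 (SE 0.0581, adjusted p = 1.12e-12). Itga3 (NM_013565.3, chr11:94905788-94938115), which like Itga6 binds laminin-332 and laminin-511, was the alpha subunit that rose. It gave 91.5, 89.2, 92.8 and 100.2 in CV, 74.4, 84.6, 79.9 and 92.4 in ENR, and 228, 182, 203 and 210 CPM in EN.

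All EN libraries of Itga3 lay above those of the other cultures, and its log2 fold change of EN over CV was 1.14 (SE 0.071, adjusted p = 5.25e-10), 0.73 under the spike-in scale and 2.07 in copies. In TPM, Itga6 was the higher of the pair in CV (110 against 31.3) and Itga3 in EN (55.4 against 28.3). Itgav, the alpha subunit of fibronectin and TGF beta binding integrins, had 19.8, 6.81 and 7.11 TPM in CV, ENR and EN, and fell by 1.16 on the log2 scale in EN relative to CV, which copies did not call (−0.48, adjusted p = 0.104). Itga1 was highest in ENR, with 5.06, 6.65 and 2.73 TPM. Itga11 gave 3, 4 and 8 counts per culture.

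Integrin beta subunits had no common direction, with 2 of 6 lower and 2 higher in EN than in CV, 2 lower and 0 higher under the spike-in scale, and 1 lower and 3 higher in copies. Itgb1 (NM_010578.2, chr8:131209554-131257100), the shared partner of most alpha subunits, was the most abundant integrin, with 123, 101 and 75.8 TPM in CV, ENR and EN. It gave 295, 325, 326 and 315 in CV, 282, 302, 273 and 291 in ENR, and 243, 238, 221 and 262 CPM in EN, with EN below all other libraries. The log2 fold change between EN and CV was −0.39 (SE 0.0515, adjusted p = 4.69e-06), but 0.43 in copies (adjusted p = 0.132).

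Itgb6 (XM_006498811.2, chr2:60436349-60560700), an epithelial subunit that pairs with Itgav, fell most among the beta subunits. It gave 42.0, 43.2, 42.9 and 43.5 in CV, 36.4, 36.0, 34.6 and 35.2 in ENR, and 5.76, 6.00, 7.85 and 6.62 CPM in EN. This was a log2 fold change of EN over CV of −2.71 (SE 0.0818, adjusted p = 7.92e-14). CV and ENR lay close together and EN far below both. Itgb5 (NM_001145884.1, chr16:33829751-33949239), another partner of Itgav, was lowest in ENR instead. It gave 43.0, 43.1, 44.9 and 40.1 in CV, 23.0, 26.7, 24.0 and 26.7 in ENR, and 69.6, 57.4, 57.6 and 58.0 CPM in EN.

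The rise of Itgb5 between EN and CV was 0.51 on the log2 scale (SE 0.0727), and it was not called under the spike-in scale (0.11, adjusted p = 0.62). Itgb4, the hemidesmosome subunit, was summed over 3 transcripts (chr11:115836023-115869726) to 13.1, 12.1 and 16.1 TPM in CV, ENR and EN. Its main transcript NM_133663.2 gave 31.7, 21.1, 26.6 and 32.9 in CV, 38.0, 27.7, 34.0 and 33.9 in ENR, and 52.8, 54.0, 44.8 and 46.6 CPM in EN. The other transcripts of Itgb4 had 4.03, 2.62 and 4.45 TPM (XM_006532572.3) and 1.49, 1.44 and 0.907 TPM (NM_001005608.2) and were not called. For NM_133663.2, EN lay above both other cultures, with a log2 fold change over CV of 0.82 (SE 0.124) that the spike-in scale did not call (0.39, adjusted p = 0.0642). For its partner Itga6 the same comparison gave −1.74 and −2.69 for its transcripts under the spike-in scale and −0.60 and −1.64 in copies, where XM_011239309.2 was not called (adjusted p = 0.0383).

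**Figure D2:**
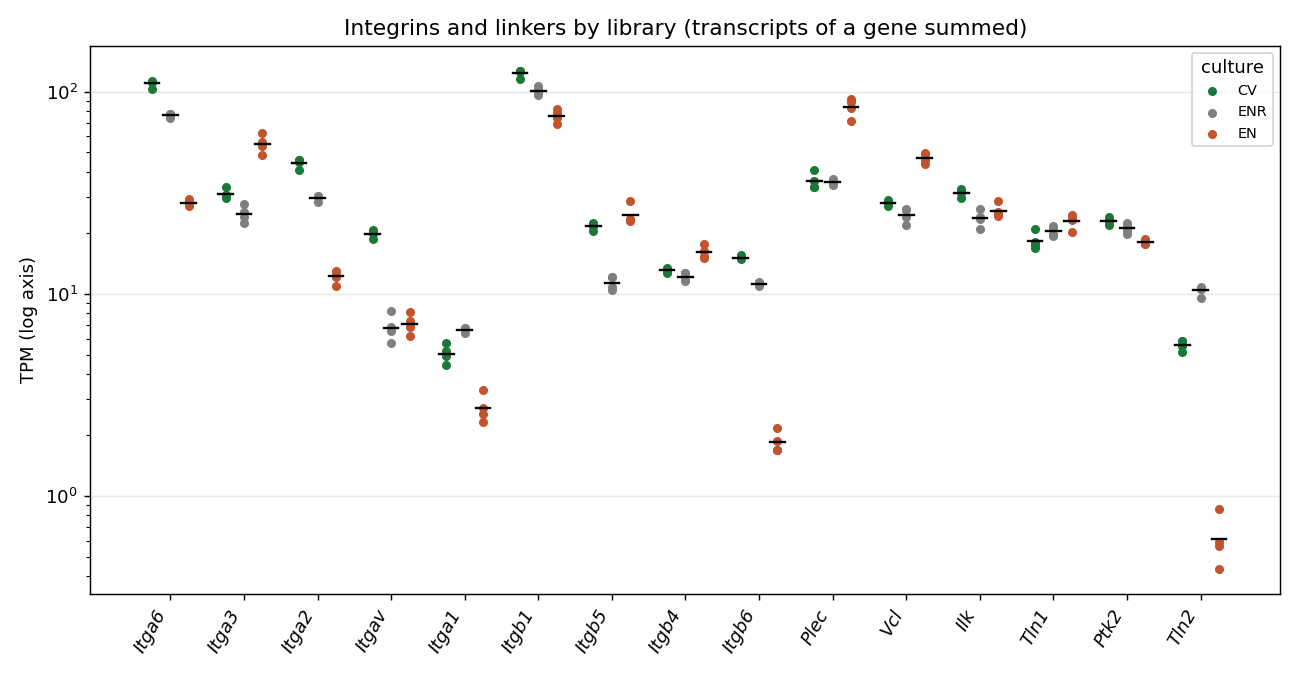
Levels in TPM (log axis) of integrin subunits and linkers, transcripts of a gene summed, in the 4 libraries of each culture, with points for libraries and bars for the mean. Itga6, Itga2 and Itgb6 are lowest in EN, Itga3, Plec and Vcl are highest in EN, and Tln2 is highest in ENR (10.4 TPM).

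Among the linkers 3 of 8 transcripts were higher and 1 was lower in EN than in CV, with 2 and 2 under the spike-in scale, 6 and 1 in copies, and 3 and 4 on log2(TPM + 1). Plec (chr15:76001404-76063004), plectin, was summed to 36.2, 35.7 and 83.9 TPM in CV, ENR and EN. Its transcript NM_201394.2 gave 139, 131, 197 and 166 in CV, 250, 287, 257 and 262 in ENR, and 932, 770, 770 and 958 CPM in EN. The cultures did not overlap, and the log2 fold change between EN and CV was 2.44 (SE 0.111, adjusted p = 1.15e-11), 2.04 under the spike-in scale and 3.48 in copies.

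The transcript NM_201386.2 of Plec did not share that rise. It had 18.8 ± 4.39, 9.83 ± 2.93 and 9.53 ± 4.56 TPM in CV, ENR and EN (SD, n = 4), and its log2 fold change between EN and CV was −0.69 (adjusted p = 0.0309), or −1.02 and past the threshold without the library EN 2. The last transcript, NM_201389.2, reached 1.28 TPM in EN and was not called. Vcl (NM_009502.4, chr14:21748655-21852895), vinculin, gave 86.7, 94.2, 91.7 and 88.2 in CV, 93.7, 86.2, 78.2 and 92.6 in ENR, and 196, 177, 185 and 197 CPM in EN. CV and ENR overlapped, and EN lay above both with a log2 fold change over CV of 1.07 (SE 0.0557), 0.65 under the spike-in scale and 1.98 in copies.

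The talins, which switch integrins on, moved apart. Tln2 (XM_011242813.2, chr9:67064894-67407510) gave 41.5, 44.4, 39.4 and 43.6 in CV, 91.4, 89.3, 89.4 and 81.0 in ENR, and 4.02, 8.14, 5.35 and 5.61 CPM in EN. It was highest in ENR and lowest in EN without overlap, and its log2 fold change was −2.92 (SE 0.123) between EN and CV and −3.97 (SE 0.116) between EN and ENR. Tln1 had 18.3, 20.6 and 22.9 TPM, and its log2 fold change between EN and CV was 0.64 (SE 0.0661), not called under the spike-in scale (0.23, adjusted p = 0.275). The kinases were level between EN and CV on the TMM scale, with log2 fold changes of 0.03 for Ilk (31.7 and 25.8 TPM in CV and EN) and −0.04 for Ptk2, the focal adhesion kinase (23.0 and 18 TPM). In copies both were higher in EN, by 0.84 and 0.76, and under the spike-in scale neither was called (−0.39 and −0.46, adjusted p = 0.0572 and 0.0201).

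The transcripts that matched by name only were changed between EN and CV as well. Col4a3bp, with 19.4, 26.8 and 30.0 TPM in CV, ENR and EN, was higher in EN (0.95, SE 0.0536). Itgb1bp1, with 16.3, 9.42 and 8.28 TPM, was lower (−0.67, SE 0.160), a difference that copies did not show (0.05). Itgb3bp, with 8.36, 7.27 and 1.36 TPM, was lower too (−2.28, SE 0.139).

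**Figure D3:**
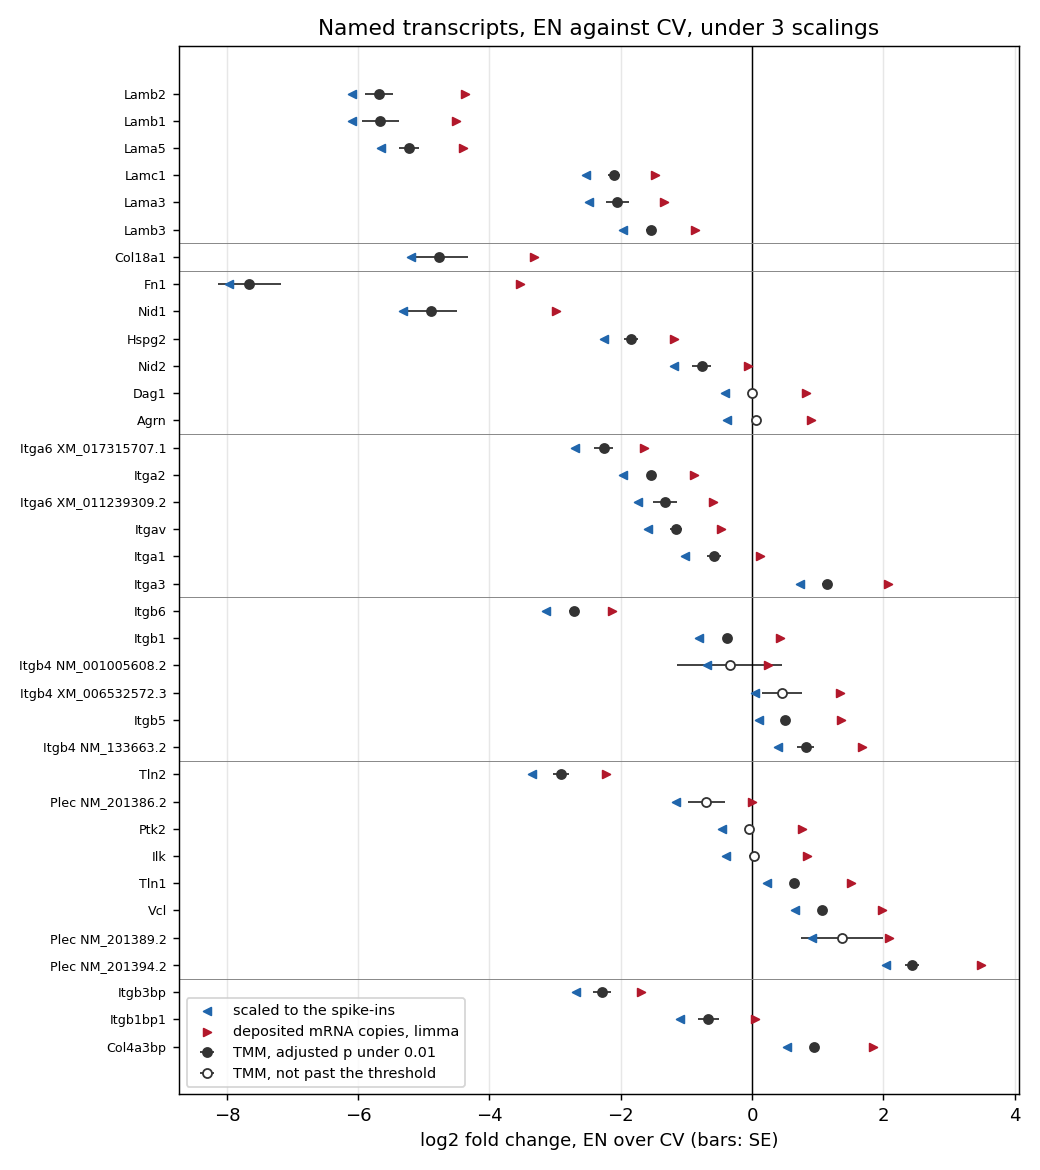
Log2 fold change between EN and CV (positive is higher in EN) of transcripts with a mean of at least 1 TPM in some culture, with SE bars on the TMM scale, filled where past the threshold; blue and red triangles give the spike-in scale and the deposited copies. The laminins plotted lie below 0 on all 3 scales and Plec NM_201394.2, Itga3 and Vcl above 0 on all 3, while Itgb1 changes sign in copies (−0.39 against 0.43); Fn1, Nid1 and Col18a1 rest on few counts in EN.

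The comparisons with ENR share their libraries with that of EN and CV and with each other. Between CV and ENR, 27 of 50 members passed the threshold, against 60% of all transcripts, and 22 were higher in CV, against 30.2%, and 5 lower, against 29.8%. With at least 2-fold required, 13 were higher in CV, against 6.74%, and 1, Tln2, was lower, against 6.17%. By role, 7 of 10 laminins were higher in CV than in ENR and 0 were lower (1 at an unadjusted p under 0.05), with 6 higher under the spike-in scale and 7 in copies, and 5 of 6 other matrix genes were higher, with 3 and 4. Of all transcripts, 11.2% were higher in CV under the spike-in scale and 15.45% in copies. Of the linkers 3 were lower and 1 was higher.

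Between EN and ENR, 24 members passed, against 72.7%, with 11 higher in EN, against 35.5%, and 13 lower, against 37.2%. The direction depended on scale here. Under the spike-in scale 4 were higher, against 11.8%, and 17 lower, against 46.0%, with a median of all transcripts of −0.52. In copies 20 were higher, against 59.2%, and 7 lower, against 8.72%, with a median of 1.02. Laminins counted 5 lower and 0 higher on the TMM scale (1 at an unadjusted p under 0.05), 7 lower and 0 higher under the spike-in scale, and 3 lower and 1 higher in copies.

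Other genes of the pathway were taken from 3 lists. Of 28 transcripts of the adhesion complex, 10 were higher and 9 lower in EN than in CV, against 35.2% and 41.2% of all transcripts, with a median log2 fold change of 0.06. The split turned with the scale, to 5 higher and 10 lower under the spike-in scale, against 15.9% and 46.2% of all transcripts. In copies it was 14 higher and 4 lower, against 47.0% and 13.6%. Flna, the actin crosslinker filamin A, fell from 40.0 TPM in CV to 12.8 in ENR and 0.905 in EN (log2 fold change −5.18, SE 0.0867), while Zyx (1.45), Src (1.22) and the main transcript of Actn4 (0.91) were higher in EN. Of 14 transcripts of further matrix receptors and their partners, 4 were higher and 9 lower, with 2 and 9 under the spike-in scale and 4 and 4 in copies. The shares of all transcripts on each scale are those just given for the adhesion complex. Cd44, the hyaluronan receptor, had 54.5, 12 and 1.37 TPM in CV, ENR and EN (−4.95, SE 0.112). Dst (XM_006495669.3) had 5.98, 8.78 and 25.6 TPM (2.41, SE 0.0685). Whether this transcript encodes a hemidesmosome form of the protein was not examined.

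Of 19 tested transcripts for collagen processing and matrix turnover, 15 were lower in EN than in CV, against 41.2% of all transcripts, and 2 were higher, against 35.2%, with a median of −1.35. Under the spike-in scale 15 were lower and 2 higher, against 46.2% and 15.9% of all transcripts. In copies 8 were lower and 3 higher, against 13.6% and 47.0%, with a median of −0.66 for the list. Plod2, which hydroxylates lysines of collagen, had 53.4, 0.268 and 0.0475 TPM in CV, ENR and EN. P3h1 and Crtap, partners in proline hydroxylation of collagen, fell by 5.06 and 3.43 on the log2 scale. The 2 that rose were P4hb, which is also the disulfide isomerase of secreted proteins (1.53, SE 0.0296), and Mmp14, a membrane-bound matrix protease (1.14, SE 0.0979). The 13 collagen transcripts listed summed to 4.33 TPM in CV, 0.416 in ENR and 0.616 in EN, as given above.

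Chromatin was compared between EN and CV over 274 regions that lie within, or up to 5000 bp before, 46 of the member genes, of which 50 lie within 500 bp of a start site and 21 overlap another protein-coding gene too. The scores are normalized and rounded by the authors, and a call was an adjusted p under 0.05 in limma on log2(score + 1), which understates changes of low scores. ATAC scores were called in 112 of 274 regions, against 35.2% of all regions, with 46 higher in EN, against 19.6%, and 66 lower, against 15.6%. H3K27ac, a mark of active promoters and enhancers, was called in 25 of 273, against 7.03%, with 15 higher, against 5.07%, and 10 lower, against 1.96%. H3K4me3, a mark of active promoters, was called in 17 of 228, against 4.90%, with 13 lower, against 2.15%, and 4 higher, against 2.75%. H3K27me3, a repressive mark, was called in 1 of 274, against 0.528%, and this was lower in EN, against 0.388%, with 0 higher, against 0.140%.

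Regions of genes were then grouped by what their RNA did between EN and CV, for genes of at least 1 TPM. The 7 genes whose RNA was higher in EN, Col4a3bp among them, held 49 regions, 17 of them in Plec. ATAC was higher in 15 and lower in 7, against 19.6% and 15.6% of all regions. H3K27ac was higher in 10, 5 of them in Plec, and lower in 0, against 5.07% and 1.96%. By gene, 5 had more ATAC regions higher than lower and 1 the reverse. The 21 genes whose RNA was lower, Itgb1bp1 and Itgb3bp among them, held 159 regions, with ATAC lower in 42 and higher in 23. H3K27ac was lower in 8 and higher in 4, and H3K4me3 lower in 11 and higher in 3, against 2.15% and 2.75% of all regions. By gene, 10 had more ATAC regions lower than higher and 5 the reverse. Regions of 1 gene are not independent, and no test was made on these groups. With the replicate number as a block, 0 of all 94215 H3K27ac regions were called, so the loss was not particular to members. Member regions gave 0 of 273 in that fit, with 61 at an unadjusted p under 0.05. The H3K27ac calls below are those of the fit without the block.

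The ATAC regions with the largest fall and the largest rise lay inside Itga6 and Vcl, and a window of 300 bases around the centre of each is printed because these windows carry the changes. A region within Itga3 is shown beside them, chosen by its values. Of the Itga3 regions more than 500 bp from a start site with at least 20 Hnf4g reads in EN, it had the highest ATAC log2 fold change. Its window holds the letters CAAAGTCCA, a form of the HNF4 recognition sequence. CAAAGTCCA and ATCAAAG, a form of the TCF recognition sequence that shares the letters CAAAG with it, were searched on both strands and are set in capitals where found. Neither set of letters was found in the Itga6 and Vcl windows. Sequences run 5′ to 3′ on the strand of the gene in NCBIM37, and all 3 windows lie inside their gene and outside its annotated exons.
Itga6 chr2:71589483-71589782 (+): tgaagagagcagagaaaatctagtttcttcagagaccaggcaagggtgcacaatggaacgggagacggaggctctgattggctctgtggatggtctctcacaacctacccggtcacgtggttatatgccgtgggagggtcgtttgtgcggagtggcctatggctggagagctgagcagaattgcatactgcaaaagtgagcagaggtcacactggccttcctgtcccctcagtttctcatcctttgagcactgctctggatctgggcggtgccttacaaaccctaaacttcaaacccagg
Vcl chr14:21781662-21781961 (+): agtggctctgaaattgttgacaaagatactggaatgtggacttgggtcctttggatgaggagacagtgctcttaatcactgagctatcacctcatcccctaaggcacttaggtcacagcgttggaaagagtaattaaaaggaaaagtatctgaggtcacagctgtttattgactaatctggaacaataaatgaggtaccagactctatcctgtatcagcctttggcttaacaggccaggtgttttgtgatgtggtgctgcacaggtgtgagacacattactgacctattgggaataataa
Itga3 chr11:94936054-94936353 (-): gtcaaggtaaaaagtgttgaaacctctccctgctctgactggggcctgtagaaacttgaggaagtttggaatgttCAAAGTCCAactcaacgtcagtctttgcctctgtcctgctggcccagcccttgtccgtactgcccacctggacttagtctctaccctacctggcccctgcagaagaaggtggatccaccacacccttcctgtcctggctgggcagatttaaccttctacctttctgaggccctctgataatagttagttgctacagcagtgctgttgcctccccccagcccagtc

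The Itga6 region (chr2:71589408-71589859), 5735 bp from the nearest annotated start site, had ATAC scores of 54, 57, 48 and 46 in CV, 12, 7, 14 and 8 in ENR, and 5, 1, 3 and 4 in EN. The cultures did not overlap, and the log2 fold change between EN and CV was −3.73 (SE 0.299, adjusted p = 5.11e-08, limma). A neighbouring region of Itga6 (chr2:71587706-71588006) had the largest fall of H3K27ac, from 26, 11 and 15 in CV through 6, 5 and 8 in ENR to 1, 0 and 3 in EN (−3.11, SE 0.627). It also overlaps an exon of Gm13662. The promoter region of Itga6 moved the other way in ATAC, from a mean of 80.3 in CV to 115 in EN (0.52, adjusted p = 0.00311), while its H3K27ac was lower in EN (194 and 116, −0.75, adjusted p = 0.018). That H3K27ac call was lost without CV 4, EN 2 or EN 4.

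The Vcl region (chr14:21781632-21781992), 32977 bp from the nearest one, had ATAC scores of 1, 3, 4 and 4 in CV, 8, 14, 9 and 16 in ENR, and 35, 58, 26 and 47 in EN. The cultures did not overlap and the log2 fold change between EN and CV was 3.44 (SE 0.320, adjusted p = 2.67e-07). At the Vcl promoter ATAC was not called (0.07, adjusted p = 0.55). The Itga3 region (chr11:94936085-94936324) had ATAC means of 8.50, 18 and 26.3 in CV, ENR and EN (1.52, adjusted p = 0.000188). At the Itga3 promoter, H3K27ac was 34, 52 and 74 in CV, 130, 100 and 118 in ENR, and 130, 204 and 185 in EN (1.72, SE 0.272, adjusted p = 6.9e-05), with CV below all other libraries.

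**Figure D4:**
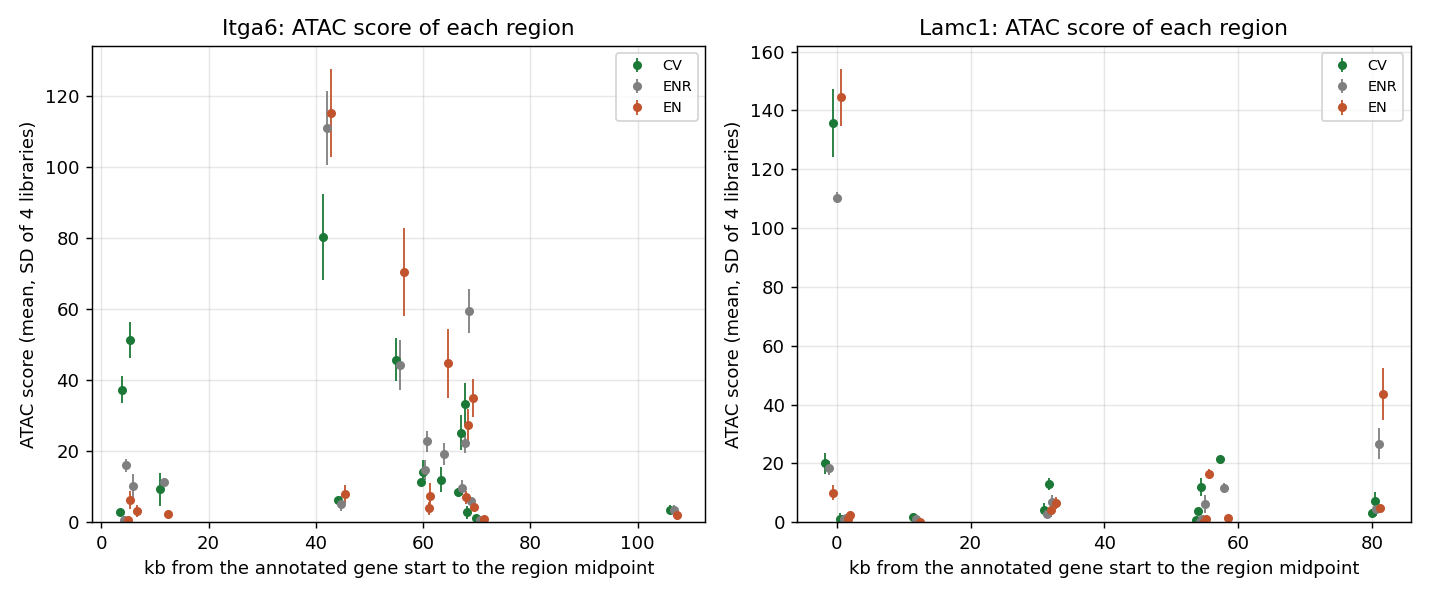
ATAC score (mean ± SD, n = 4) of each region along Itga6 and Lamc1 against its distance from the gene start in kb, with the cultures offset sideways. Regions high in CV and regions high in EN occur in the same gene, as with the Itga6 region at 51.3 in CV and 3.25 in EN and its promoter region at 80.3 and 115.

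Regions of 1 gene did not always move together. In Lamc1 a region 24201 bp from the nearest start site (chr1:155121792-155122212) had ATAC scores of 21, 23, 21 and 21 in CV, 10, 13, 13 and 11 in ENR, and 1, 1, 3 and 1 in EN (−3.24, SE 0.257). A region 976 bp from a start site inside the gene (chr1:155098567-155099215) had 5, 5, 8 and 11 in CV, 30, 24, 32 and 21 in ENR, and 38, 50, 34 and 52 in EN (2.47, SE 0.237). Both regions were chosen after their values were seen, and Lamc1 RNA was lower in EN. In Plec, whose RNA was higher in EN, H3K27ac was higher in 3 adjoining promoter regions (2.19, 1.69 and 2.26), and ATAC was higher in 2 of the 3 (0.64 and 0.75) and lower in a promoter region farther along (−0.87). The H3K27ac call at 1.69 was lost without EN 3 and that at 2.26 without EN 4. In Itgb5 the intronic region chr16:33837345-33837585 had the largest H3K27ac rise, from 1, 1 and 3 in CV through 2, 6 and 7 in ENR to 17, 13 and 13 in EN (2.59, SE 0.615). Its call was lost without EN 2 (adjusted p = 0.0527 in limma).

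At promoters, meaning regions within 500 bp of a start site, ATAC was called in 17 of 50, against 34.5% of all promoters, with 11 higher, against 18.6%, and 6 lower, against 15.9%. H3K27ac was called in 13 of 50, against 19.0%, with 8 higher, against 15.4%, and 5 lower, against 3.55%. H3K4me3 was called in 8 of 49, against 9.60%. The 7 promoters that were lower in H3K4me3, against 5.39%, belonged to Lamb1, Lamb3, Lama5, Fn1, Col18a1, Col1a1 and Col12a1, and the 1 that was higher, against 4.21%, to Itgb3bp. With the replicate number as a block, H3K4me3 calls over all member regions fell from 17 to 4, 3 lower and 1 higher, with 44 at an unadjusted p under 0.05 in limma, and the promoters of Fn1, Lamb3 and Col18a1 lost theirs (adjusted p = 0.071, 0.078 and 0.074). Over all 77827 regions tested, H3K4me3 calls fell from 3812 to 1927. H3K27me3 was called at 1 of 50 promoters, against 0.370%, where it was lower, against 0.0885%, while 0 were higher in limma (0.282% of all promoters; 19 member regions at an unadjusted p under 0.05).

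The 250 bases before the annotated starts of Fn1 and Lamb1 are printed as 2 starts at which H3K4me3 fell. Capitals mark TGACGTCA, a form of the cAMP response element, and CCAAT, both searched on both strands after the values were seen. TGACGTCA begins 135 bases and CCAAT 114 bases before the Fn1 start, and CCAAT begins 128 bases before that of Lamb1. Among 22350 gene starts, 1.92% hold TGACGTCA and 35.0% hold CCAAT in a window of this length, so the latter is common. The Fn1 window also overlaps an annotated exon of Apol7d.
Fn1 chr1:71699775-71700024 (-): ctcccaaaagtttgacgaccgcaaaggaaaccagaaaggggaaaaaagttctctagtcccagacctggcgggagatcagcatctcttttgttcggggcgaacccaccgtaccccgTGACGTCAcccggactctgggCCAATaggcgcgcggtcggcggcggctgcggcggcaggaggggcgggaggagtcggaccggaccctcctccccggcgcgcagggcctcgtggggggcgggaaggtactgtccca
Lamb1 chr12:31949849-31950098 (+): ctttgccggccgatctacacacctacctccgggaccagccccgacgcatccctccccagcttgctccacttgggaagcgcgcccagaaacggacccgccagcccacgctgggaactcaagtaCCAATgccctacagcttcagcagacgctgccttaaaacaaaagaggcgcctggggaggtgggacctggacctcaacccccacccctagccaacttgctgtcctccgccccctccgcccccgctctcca

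The Lamb1 promoter (chr12:31950025-31950846) had H3K4me3 scores of 26, 20 and 26 in CV, 4, 4 and 5 in ENR, and 1, 1 and 1 in EN (−3.63, SE 0.184, adjusted p = 0.00104). No culture overlapped another. The Fn1 promoter (chr1:71699272-71700196) had H3K4me3 scores of 29, 25 and 28 in CV, 12, 11 and 9 in ENR, and 7, 2 and 5 in EN (−2.43, adjusted p = 0.00723), and its ATAC scores fell from 55, 42, 39 and 32 in CV to 9, 10, 8 and 8 in ENR and 13, 4, 6 and 4 in EN (−2.59, SE 0.284). For Fn1, ATAC in ENR and EN overlapped, both below CV. The Lamb3 promoter had H3K4me3 scores of 24, 31 and 29 in CV, 19, 19 and 20 in ENR, and 5, 10 and 7 in EN (−1.84), while its ATAC was not called (−0.22, adjusted p = 0.212).

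The largest rise of H3K4me3 lay in Tln2 (chr9:67108675-67109063), 66408 bp from the nearest start site, with scores of 1, 1 and 2 in CV, 2, 2 and 2 in ENR, and 5, 3 and 5 in EN (1.20, SE 0.254, adjusted p = 0.0395). The scores are low, the call was lost in 9 of the alternative settings and leave-outs, and RNA of Tln2 was lower in EN. At the Col4a5 promoter ATAC (−1.32) and H3K27ac (−1.97) were lower in EN. The H3K27ac call was lost whichever library was left out (adjusted p from 0.0506 to 0.192 in limma). The ATAC call was lost without CV 1 (adjusted p = 0.0542).

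The marks differed by gene at the integrin promoters. Itga2 (chr13:115720683-115722471) lost H3K27ac, from 222, 157 and 169 in CV through 108, 112 and 100 in ENR to 59, 84 and 64 in EN (−1.39, SE 0.238), with ATAC at 64.8 in CV and 62.3 in EN (adjusted p = 0.777). Itgb6 had H3K27ac means of 92.0 in CV and 41.7 in EN (−1.14, adjusted p = 0.0235) with ATAC not called. This H3K27ac call was lost without CV 4, CV 5, EN 2 or EN 3. At the promoters of Itgb1, Itgb4, Itgb5 and Dag1 none of the 4 datasets passed the threshold, with adjusted p values in limma from 0.0573 upward. The single call of H3K27me3 lay at Lama4, with scores of 27, 24 and 24 in CV, 7, 18 and 11 in ENR, and 10, 2 and 1 in EN (−2.68, adjusted p = 0.0383), a call that 9 alternatives also lost, at a gene whose RNA was barely read.

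**Figure D5:**
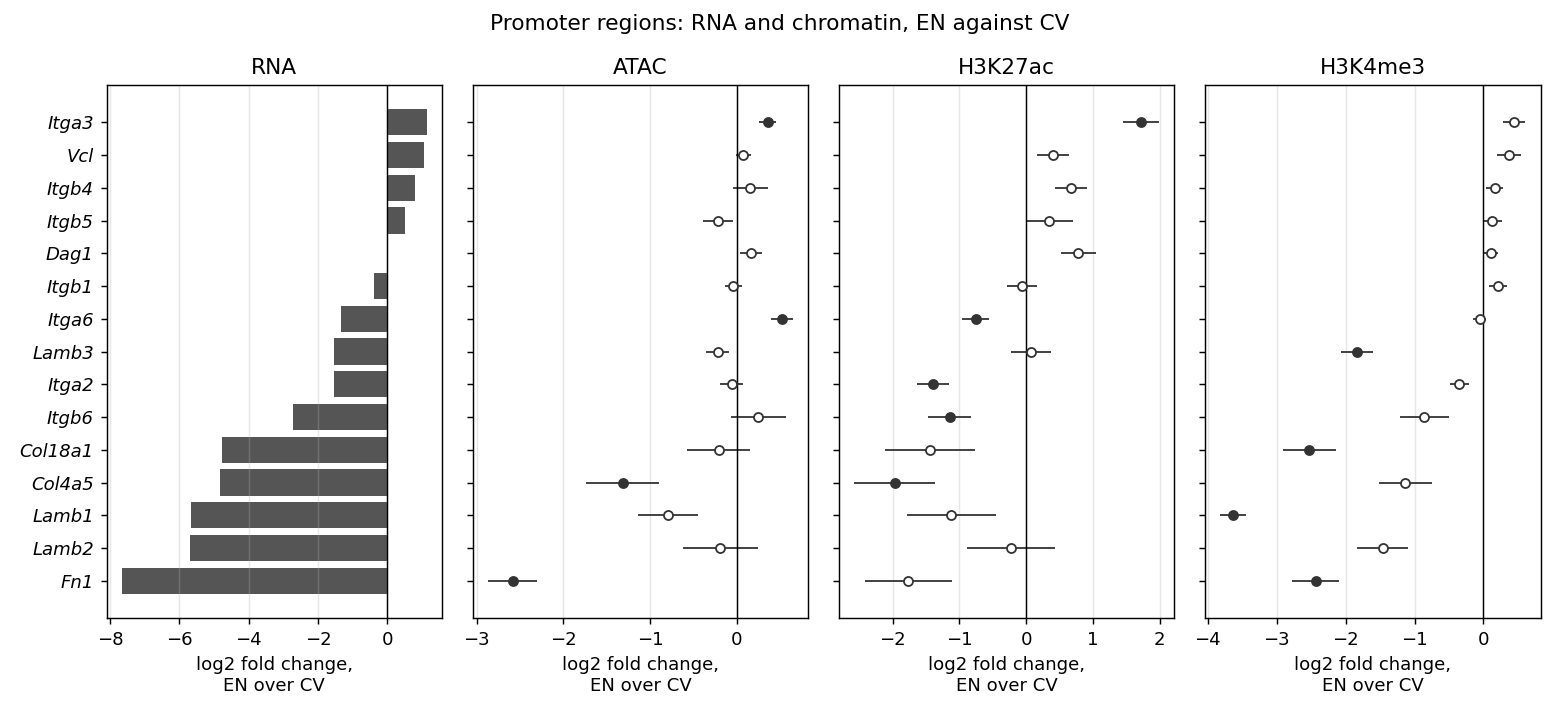
RNA (bars, log2 fold change between EN and CV on the TMM scale, XM_011239309.2 for Itga6 and NM_133663.2 for Itgb4) beside ATAC, H3K27ac and H3K4me3 (points, log2 fold change of the score ± SE) at the promoter region with the highest ATAC score of genes described by library, without Plec and Col15a1, filled where called; RNA bars of Fn1, Col18a1 and Col4a5 rest on few counts in EN. Lamb1 shows H3K4me3 at −3.63 with ATAC at −0.79, and Itga3 shows H3K27ac at 1.72.

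Hnf4g reads were counted in 1 library per culture with very unequal depth, 84340 reads within regions in CV, 352600 in ENR and 1816497 in EN, so no test was made and intervals cover counting error only. In 57 regions of 30 member genes the EN library held at least 20 reads, and 31 of these are promoters. The 95% interval of the EN value lay wholly above that of ENR in 18 of the 57 and wholly below it in 3. Against CV, the shallowest library, it lay above in 5 and below in 2. The regions were admitted by their EN reads, which tilts these counts towards EN. Shares over all regions were not computed, so the counts show nothing particular to the members. At the Vcl promoter 2, 10 and 227 reads in CV, ENR and EN gave 23.7, 28.4 and 125 RPM, reads scaled to the summed reads of the library (EN interval 109 to 142). At the Itga3 promoter 4, 20 and 201 reads gave 47.4, 56.7 and 111 RPM. The printed Itga3 region with CAAAGTCCA, chosen in part by its EN reads, held 0, 11 and 22 reads. This is 31.2 RPM in ENR and 12.1 in EN. CAAAGTCCA was found in the central 300 bases of 9 of 274 member regions, against 2.28% of all 94340 regions searched, and ATCAAAG in 19, against 5.57%. CAAAGTCCA was found in 2 of the 46 member regions with higher ATAC in EN and in 1 of the 66 with lower ATAC, and ATCAAAG in 4 and 4.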

How the data were processed

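The authors made the expected counts and the TPM with kallisto (0.43.0 in the submitters' processing notes) on an index limited to transcripts with quantified proteins, and they also deposited estimates of mRNA copies scaled with spike-ins. The authors aligned chromatin reads to mm9 with BWA, removed duplicates with Picard, called peaks with MACS2 2.0 and joined them into 94469 regions, and the deposited scores are read counts per region, normalized and rounded to whole numbers. The Hnf4g counts were deposited raw. H3K27me3 scores cover regions extended to 1000 bp. RNA libraries were depleted of ribosomal RNA and strand-specific.

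Expected counts were rounded, the 92 spike-ins were left out, and 9288 of 9481 transcripts entered the test (detected in at least 4 of 12 libraries) in edgeR 4.0.16 (quasi-likelihood, TMM, all 3 cultures in 1 fit, Benjamini-Hochberg adjustment over all transcripts, threshold 0.01). The chromatin scores were tested as log2(score + 1) in limma 3.58.1 with a trend, over regions above 0 in at least 3 libraries, with a threshold of 0.05. Scripts ran in R 4.3.3 and Python 3.11.15, and both tests were checked on simulated data. Depth was 5630977 to 8859757 expected counts per RNA library. Counting intervals are exact at 95% and, like the floor of 3 counts, cover counting error only. No source says that replicates were separate cultures, so p-values measure the spread between these libraries, which may be technical.

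Text names every member with a mean of at least 1 TPM in some culture (1 is counted but not reported here), those with the largest changes by library, and the region with the largest fall and rise in each chromatin dataset beside the promoters of these genes. Members and lists were chosen with earlier results of these data known. Replicate numbers were not used as pairs in the main fits, and no source says whether they mark a pairing. Same-numbered RNA libraries correlated in their deviations from the group means at −0.08 to 0.11. Same-numbered ATAC libraries did so at 0.0695 to 0.46 (8 of 12 pairs over 0.1). Their mean was 0.17, against −0.056 for other pairs between cultures. Alternatives were spike-in scaling, mRNA copies, TPM with a pseudocount of 1 or 5, DESeq2 1.42.0, other filters, pseudocounts and normalizations, a replicate block and leaving out each library. The 2 RNA libraries of the Hnf4g knockout experiment and mark libraries outside the joint table were not analysed here. Sequences were read from NCBIM37, and coordinates count from 1.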

Additional observations from a re-analysis of the deposited data

Results flagged for a closer look

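In groups of 4 libraries, the highest or lowest was set against Dixon's critical value for its gap over the range, which chance passes in about 1 of 20 groups. Among 94 groups of named transcripts, 7 passed, all in CPM. Itga2 was 82.1 in ENR 1 with 87.0 the next value, Col4a3bp was 116 in EN 2 with 123 next, and these were the low ones. Itgb5 was 69.6 in EN 1 with 58.0 next, Lamc1 was 15.3 in EN 3 with 12 next, and Ilk was 36.9 in EN 4 with 32.1 next. Nid2 was 15.9 in CV 1 with 12.9 next. The Itgb4 transcript XM_006532572.3 was 28.0 in CV 2 with 12.4 next, and without CV 2 its log2 fold change between EN and CV moved from 0.46 to 0.92 and passed the threshold. The cause was not tested.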

How the results depend on the processing

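Limits first: TMM, spike-ins and copies set 3 different zeros for a change, EN values of the fallen laminins, Fn1, Nid1 and collagens rest on few counts, and chromatin scores are low in many regions, which the pseudocount compresses. Of the values recomputed outside leave-outs, 1531 kept direction and side of the threshold, 50 changed sign without a call in either fit, 46 were newly called, 76 lost the call and 20 reversed with a call in at least 1 fit. The cause was not tested.

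In copies, members higher in EN than in CV rose to 14, against 47.0% of all transcripts. Those higher and lower than ENR became 20 and 7, against 59.2% and 8.72%, and those lower in CV than in ENR 0, against 5.18% (limma). Higher in EN than in ENR were 4 under spike-ins, against 11.8% of all transcripts, and 5 on log2(TPM + 1), against 28.8%, and on log2(TPM + 5). At 2-fold or more, 5 were higher in EN than in CV, 5 higher than in ENR, and 14 differed between CV and ENR, 13 higher and 1 lower in CV. Copies reversed EN against CV for Itga1 (0.13), Ptk2 (0.76), Itgb1bp1 (0.047) and Itgb1 (0.43), and EN against ENR for Ptk2 (1.01), Itgb1bp1 (1.08), Itgb1 (0.73), Lamc1 (0.83), Lamb3 (0.38) and Itga6 XM_011239309.2 (0.92). TPM with pseudocounts 1 and 5 reversed EN against CV for Ilk (−0.29, −0.25), Agrn (−0.25, −0.22) and Dag1 (−0.31, −0.27). Spike-ins reversed EN against ENR for Ilk (−0.21), Col4a3bp (−0.18), Dag1 (−0.30) and Tln1 (−0.19).

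Called ATAC regions were 59 with a mean score of at least 10, a filter that leaves fewer regions to test, and 11 at the study's thresholds. At promoters they were 17 of 50, against 34.5% of all promoters. H3K27ac gave 16 after quantile normalization and 3 with no trend, where 4238 and 924 of all 94215 regions were called. It gave 5 at the study's threshold and 13 of 50 at promoters, against 19.0% of all promoters. H3K4me3 gave 8 with a mean of at least 10, again over fewer regions, 0 at the study's threshold and 8 of 49 at promoters, against 9.60%. H3K27me3 gave 0 with pseudocount 5, quantile normalization, no trend and the study's threshold in limma, with 17 to 20 at an unadjusted p under 0.05.

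With the replicate block, which the labels do not say marks a pairing, members called were 32, 24 and 25 in RNA (EN and CV, EN and ENR, CV and ENR), 117 ATAC, 0 H3K27ac, 4 H3K4me3 and 0 H3K27me3 regions. Of the H3K4me3 promoters described, Fn1, Lamb3 and Col18a1 then had adjusted p values of 0.071, 0.078 and 0.074.

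Leaving out each library gave 31 to 33 members for EN and CV (8 to 10 higher, 23 to 24 lower), 23 to 25 for EN and ENR (10 to 12, 13 to 14), and 24 to 28 for CV and ENR (19 to 23, 5 to 5). It gave 101 to 111 ATAC, 10 to 22 H3K27ac, 11 to 22 H3K4me3 and 0 to 2 H3K27me3 regions. H3K27ac fell to 10 without EN 2 and to 13 without EN 3 or EN 4, H3K4me3 to 11 without CV 2, ENR 2 or ENR 4, and H3K27me3 was 0 without CV 1, CV 2, CV 3 or EN 4 and 2 without EN 1. Among the single values, 18 were newly called and 49 lost their call in some leave-out, none reversed with a call, and 76 changed sign without one. The new calls include Itgav (0.32 without ENR 2) and Nid2 (0.49 without ENR 3) for EN against ENR and Plec NM_201386.2 for CV against ENR (0.92 without CV 3, 0.77 without EN 2), and the lost ones include Ilk and Dag1 against ENR.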

Other observations

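At the promoters of Fn1 and Lamb1, H3K27me3 scores were highest in ENR, a contrast that was not tested. The Fn1 promoter had 11, 25 and 14 in CV, 44, 64 and 66 in ENR, and 19, 18 and 31 in EN. The Lamb1 promoter had 6, 24 and 30 in CV, 56, 64 and 58 in ENR, and 29, 12 and 24 in EN. In both, every ENR library lay above all others, while CV and EN overlapped. Both promoters were picked for this after their values were seen. The share of all regions or promoters with that order was not computed, so it cannot be called particular to them.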
